A study of Homo sapiens with 2 samples.

Results

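The genes described here carry the insulin signal from the cell surface to the nucleus and to glucose uptake. They are Insr, the insulin receptor, Irs1 and Irs2, the insulin receptor substrates, Foxo1, a forkhead transcription factor, and Slc2a4, which encodes the glucose transporter GLUT4. They were taken by symbol and are 5 of the 84 genes of an adipogenesis PCR array. The array was run on HepG2 cells, an established human hepatoma line kept in low-glucose medium with foetal bovine serum. The control cells were untreated, and the other cells received MOES, a boiled water extract of the seeds of Moringa oleifera, for 72 h. The dose is 5 mg/mL in the title of the treated sample and 2.5 mg/mL in the labelling protocol and in the study's methods for the array. The tables name no dose, so the MOES sample is not given one below. No added insulin is mentioned in the culture or treatment protocols. Each group held 1 sample, so no difference below has a replicate check, no error between samples is known, and no test was run.

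Insulin binding switches on the kinase activity of its receptor, which phosphorylates the IRS proteins. These recruit PI3-kinase, and the kinase AKT that follows phosphorylates FOXO1 and so keeps it out of the nucleus. In fasting liver, nuclear FOXO1 is known to drive genes of gluconeogenesis and also IRS2 and INSR themselves, so that the pathway feeds back on its own receptor and substrate. GLUT4 is the insulin-responsive transporter of muscle and fat, whereas hepatocytes take up glucose mainly through GLUT2, which is not on the panel.

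Each value is a threshold cycle, Ct, the PCR cycle in which the fluorescence of a well passes a fixed threshold, so that a higher Ct means less template and 1 cycle is a factor of 2. The highest Ct in the tables is 35, read here as a ceiling. The gene wells at 35 numbered 6 without MOES and 25 with it. Every MOES gene well under 35, 59 in all, was a whole number, whereas 0 of the 78 such control wells was. Fold changes were taken relative to the mean Ct of B2m, Gusb and Hsp90ab1, the reference genes behind the deposited delta Ct, which differed between samples by at most 0.02 cycles per well. That is far closer than the well-to-well SD given below. Their MOES wells, at 23.82, 25.66 and 25.3, also lacked the whole-number pattern of the gene wells, for which no reason is given. The other reference genes differed more, with Gapdh going from a Ct of 28.46 to 35 and Actb from 34.05 to 35. The positive PCR control wells were at 35 in both samples, so no control well shows that the PCR itself worked where the Ct is 35. The 3 reverse transcription control wells, which are made to read a spiked RNA, crossed the threshold at 31.41, 32.01 and 32.1 cycles without MOES. They stood at 35 with it. They were thus at least 7.41-fold to 12.0-fold lower with MOES, a range above the fold differences of Insr, Irs1 and Foxo1 given below and around that of Irs2. The study's methods name a cDNA kit from a maker other than that of the array and mention no spiked RNA. What these wells read is therefore not known. The part of reverse transcription or RNA quality in the values of the insulin genes was not tested. In the control sample these wells had an SD of 0.375 cycles, or 0.530 cycles when 1 well is subtracted from another, which describes a single plate and no biological variation. This SD rests on 3 late wells and could not be taken with MOES, so it may not hold for MOES wells or for early wells. It is used below as a scale and not as a test. All 84 gene symbols are written in the mouse style, and the genomic DNA control well is named MGDC, the array maker's name for the mouse control, while the labels name the human array. In untreated cells Actb, at a Ct of 34.05, came up later than Slc2a4 at 33.42. The nuclear receptor gene Pparg, at 19.82, came up there before B2m at 23.82. Its deposited level relative to the reference genes was 34.1. Whether the primers were those of the human array, or read the genes named, was not tested.

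The labelled cell type was checked against markers. The 5 hepatocyte markers of the panel had a median control Ct of 31.2, against 30.49 for all genes, and 4 of the 5 had a fold change below 0.5, the lower limit of the study's methods, as did 67.9% of the panel. Agt, the angiotensinogen gene of the liver, had a Ct of 33.91 without and 35 with MOES. Nr1h3, the oxysterol receptor LXR alpha, had 32.55 and 35. Nr0b2, the bile acid-induced corepressor SHP, was earlier, at 28.76 and 32, as was Ppara, a nuclear receptor of fatty acid oxidation, at 28.51 and 33. Cebpa, a C/EBP factor of liver and fat, had 31.2 and 32. The 6 white adipocyte markers had a median control Ct of 27.49, with 5 below 0.5, and the 3 brown adipocyte markers one of 31.23, with 2 below 0.5. The control Ct of the white adipocyte markers ran from 25.1 for Adig, encoding adipogenin, to 33.89 for Lep, the leptin gene, which alone of these 6 was above 1.5. The part of cell identity in the values below was not tested. A Ct depends on the primers as well as on the transcript, so these values do not rank the genes by abundance. Albumin and other defining hepatocyte transcripts are not on the panel. In RNA from a whole culture, fewer cells of a kind and less RNA per cell cannot be told apart.

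Every gene from receptor to transporter was later in the MOES sample. The study's methods set limits of 1.5 and 0.5 on the fold change. All 5 were below the lower limit, Slc2a4 as an upper bound. The same held for 67.9% of the panel, so most other genes of the array lay there too. That share counts genes too late without MOES to be called below 0.5, such as the 6 at 35 in both samples. It therefore understates the share among genes that could be called. The median log2 fold change was -1.92 for the 5 genes and -1.77 for all 84. Because Slc2a4 may have been lower than its bound, the median of the 5 lies between -2.16 and -1.92. The median of all 84 also counts bounds as they stand and could be lower. Where both wells were under 35, it was -2.04 for 4 genes of the pathway and -1.65 for 59 genes of the panel. The 5 log2 fold changes all were lower by more than 2 of these well-to-well SD, 1.06, as were 65.5% of the panel. A later Ct in the MOES sample was recorded for 69 genes, or 82.1%.

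**Figure D1:**
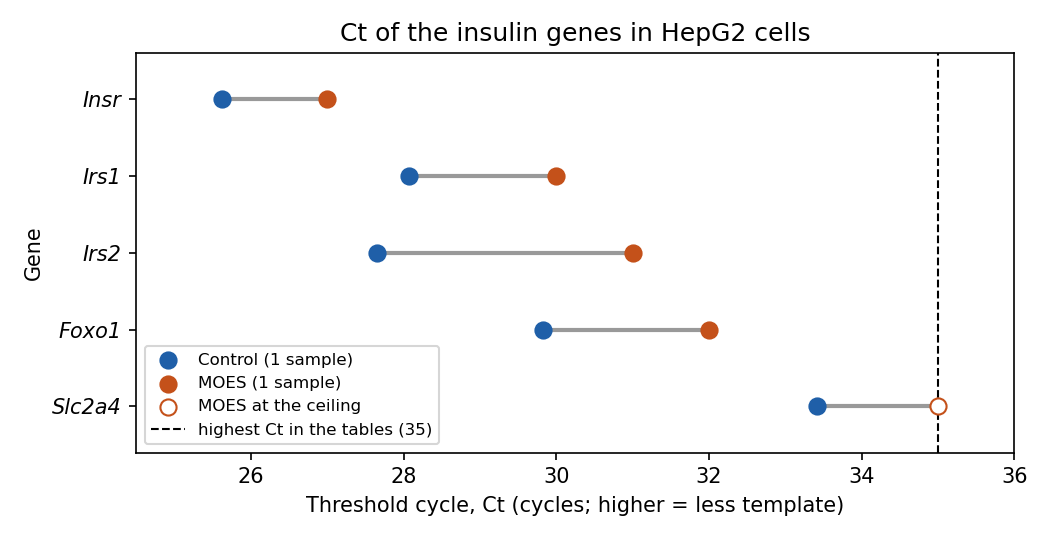
Ct in cycles (horizontal axis) of the insulin receptor, its substrates, Foxo1 and Slc2a4 (vertical axis) in the control sample (blue) and the MOES sample (orange), 1 sample each; the dashed line marks the highest Ct in the tables, 35. All 5 genes are later in the MOES sample, the widest gap is that of Irs2, from 27.65 to 31, and Slc2a4 ends at the ceiling.

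The receptor gene Insr had the smallest measured difference of the pathway. Its Ct was 25.62 without MOES and 27 with it. In the authors' deposited levels relative to the reference genes, this was 0.615 and 0.238. The log2 fold change was -1.37, a level 2.58-fold lower with MOES. Counting bounds as they stand, it was the 50th lowest of the 84 genes and lay 0.40 above the panel median on the log2 scale. If the whole-number Ct of 27 stands for a value rounded to the nearest cycle, the level was between 1.83-fold and 3.66-fold lower, and the milder of these values is not below 0.5. Insr was the 10th earliest gene well of the control, so a level up to 662-fold lower could have been measured before the ceiling.

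The substrate genes differed from each other. Irs1 encodes the substrate that is prominent in muscle and fat, and its Ct went from 28.07 without MOES to 30 with it. The deposited level of Irs1 was 0.112 and 0.0297, and the log2 fold change was -1.92, a level 3.78-fold lower. Irs2 encodes the substrate that carries much of the insulin signal in liver. Its Ct went from 27.65 to 31, with deposited levels of 0.151 and 0.0149. The log2 fold change of Irs2 was -3.34, a level 10.1-fold lower, and from 7.16-fold to 14.3-fold lower within the rounding of the MOES Ct. Irs2 crossed the threshold before Irs1 in untreated cells and after it in treated cells. In untreated cells the wells differed by less than the well-to-well SD of 0.530 cycles, so their order there is not resolved. The difference in log2 fold change was 1.42, or 2.68-fold, which exceeds a whole cycle of rounding. With the control wells rounded too, it was 1. The SD of a difference between 2 such log2 fold changes is 0.75 from the reverse transcription control wells, so the gap is above 1 SD and under 2 SD.

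Among the 4 genes measured below the ceiling in both samples, Irs2 was lower than each of the others by more than 1 cycle. It was lower than Insr by 1.97, than Irs1 by 1.42 and than Foxo1 by 1.18 on the log2 scale, and only the gap to Insr exceeded 2 SD, 1.5. With the control wells rounded too, the gaps to Irs1 and Foxo1 were 1 and no longer exceeded a cycle, and that to Insr was 2. The other 3 of the 6 pairs differed by less than a cycle, with gaps of 0.55 between Insr and Irs1, 0.79 between Insr and Foxo1 and 0.24 between Irs1 and Foxo1. The order of these genes after Irs2 is therefore not resolved at the precision of the MOES values. These gaps are the same under any reference, which shifts all genes alike.

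By value, IRS2 had the largest and INSR the smallest measured difference, though INSR lay within 1 cycle of IRS1 and FOXO1. INSR is therefore not known to be an end of the order. The promoters of IRS2 and INSR are shown for comparison. Both are from RefSeq on GRCh38.p14, cover the 250 bases before the start of the gene and are printed in the direction of the gene. The capitals mark the GC box GGGCGG and TGTTTTG on either strand. TGTTTTG, which FOXO proteins are known to bind, is the insulin response sequence described for the IRS2 promoter.
IRS2, chr13:109786584-109786833, minus strand: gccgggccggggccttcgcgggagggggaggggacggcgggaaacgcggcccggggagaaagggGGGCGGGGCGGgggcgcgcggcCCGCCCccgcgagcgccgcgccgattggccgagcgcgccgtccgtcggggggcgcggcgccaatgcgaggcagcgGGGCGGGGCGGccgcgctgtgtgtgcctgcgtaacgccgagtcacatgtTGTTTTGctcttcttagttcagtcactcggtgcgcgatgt
INSR, chr19:7294415-7294664, minus strand: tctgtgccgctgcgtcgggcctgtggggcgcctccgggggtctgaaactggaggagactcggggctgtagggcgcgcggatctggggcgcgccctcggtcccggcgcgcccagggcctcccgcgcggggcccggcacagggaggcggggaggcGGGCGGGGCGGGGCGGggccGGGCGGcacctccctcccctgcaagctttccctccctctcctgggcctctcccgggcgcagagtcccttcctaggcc

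The IRS2 window held 1 match to TGTTTTG, which began 40 bases before the start of the gene, and 5 GC boxes. The INSR window held 4 GC boxes, some of them overlapping, and no match to TGTTTTG. IRS1 and FOXO1 likewise had 4 GC boxes and no such match. Of the 35116 promoter windows of this length, 4.30% held TGTTTTG and 42.6% held a GC box on either strand. The other FOXO-binding element searched, TGTTTAC, was in 2.98% of all windows and had no match in these 4. The GC content was 76.4% for IRS2, 78.4% for INSR, 80.8% for IRS1 and 67.2% for FOXO1, against a median of 58% over all windows. TGTTTTG was taken from the IRS2 promoter itself, so its match in IRS2 was fixed in advance and cannot set IRS2 apart from the other genes. These matches describe the letters alone, since binding was not measured, and the motifs were chosen with the fold changes known.

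Foxo1, the transcription factor that the pathway inhibits, was at a Ct of 29.83 without MOES and 32 with it. Its deposited level was 0.0333 and 0.007425. The log2 fold change was -2.16, a level 4.47-fold lower, with 3.16-fold to 6.32-fold allowed by the rounding. The MOES well of Foxo1 shared its Ct of 32 with 20 other genes. FOXO1 and IRS2 both lie on chromosome 13, at positions 40555667 to 40666641 and 109752695 to 109786583 of GRCh38.p14, far from each other on the chromosome.

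Slc2a4, the gene of the transporter at the end of the pathway, was the latest of the 5 in both samples. Its Ct was 33.42 without MOES and 35 with it, with a deposited level of 0.00275 in the control. The control well was 1.58 cycles under the ceiling, so the largest difference that could be seen was 2.97-fold. The transcript was at least 2.97-fold lower in the MOES sample, if the PCR worked in that well. Slc2a4 can therefore not be placed in the order of the other 4 genes. With every Ct above 32 set to 32, both of its wells read the same and its log2 fold change was 0.01.

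**Figure D2:**
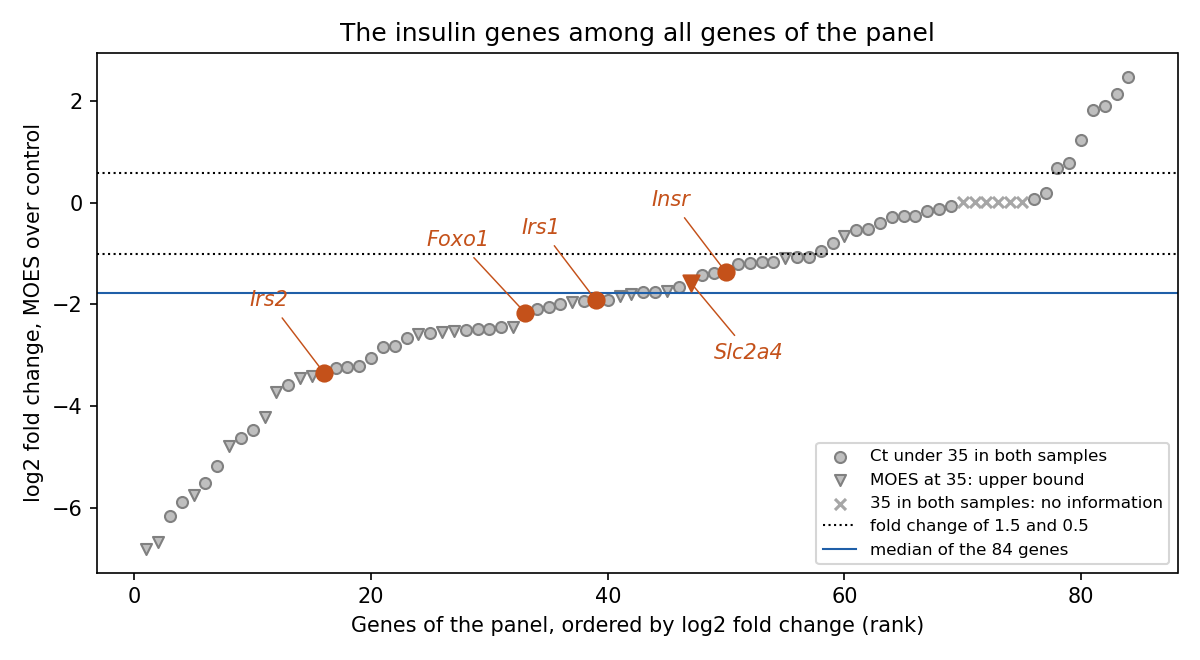
Log2 fold change of MOES over control (vertical axis) for the 84 genes of the panel ordered by that value (horizontal axis), with triangles for genes at 35 in the MOES sample alone, crosses for genes at 35 in both, and the insulin genes in orange. Irs2 is the 16th lowest gene, Foxo1 the 33rd and Irs1 the 39th, while the bound of Slc2a4 and the value of Insr lie just above the panel median of -1.77.

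Measured against the panel median with bounds as they stand, the pathway spread to both sides. Irs2 lay 1.57 below it on the log2 scale, Foxo1 0.39 below, Irs1 0.14 below, and Insr 0.40 above. The gap of Irs2 was the only one of these 4 larger than the SD of 0.530. With 1 sample per group, a gene's pattern is its fold change alone, and the genes closest to each member were named by that value. Retn, the hormone resistin, had a log2 fold change of -1.38, which was 0.01 from that of Insr. Lpl, lipoprotein lipase, had -1.92, the same as Irs1. Nearest to Irs2 were Cebpb at -3.25, a C/EBP transcription factor, and Nr0b2 at -3.23. Nearest to Foxo1 were Fabp4 at -2.09, the fatty acid binding protein of adipocytes, and the growth factor gene Fgf2 at -2.06. The other nearest genes were Foxc2 at -1.42 for Insr and Ncoa2 at -1.93 for Irs1. Slc2a4 has only a bound, so no nearest genes are given for it.

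The choice of reference set the direction for part of the pathway. B2m, Gusb or Hsp90ab1 alone moved every value by at most 0.01. Gapdh and Actb ended at the ceiling, so a reference with either of them raises every value by a minimum only, and the values that follow take a Ct of 35 as it stands. With Actb alone, they ran from -2.40 for Irs2 to -0.43 for Insr. With the mean of all 5 reference genes, Irs2 was at -1.85, Foxo1 at -0.67, Irs1 at -0.43 and Slc2a4 at -0.08, and Insr was at 0.12. Irs2 was then the only one of the 5 below 0.5. With Gapdh alone, the values ran from 3.19 for Irs2 to 5.16 for Insr, so the direction turned for each gene measured in both samples. Slc2a4 was at 35 like Gapdh and Actb, so its direction against either is unknown. No value here shows which reference genes kept their level.

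**Figure D3:**
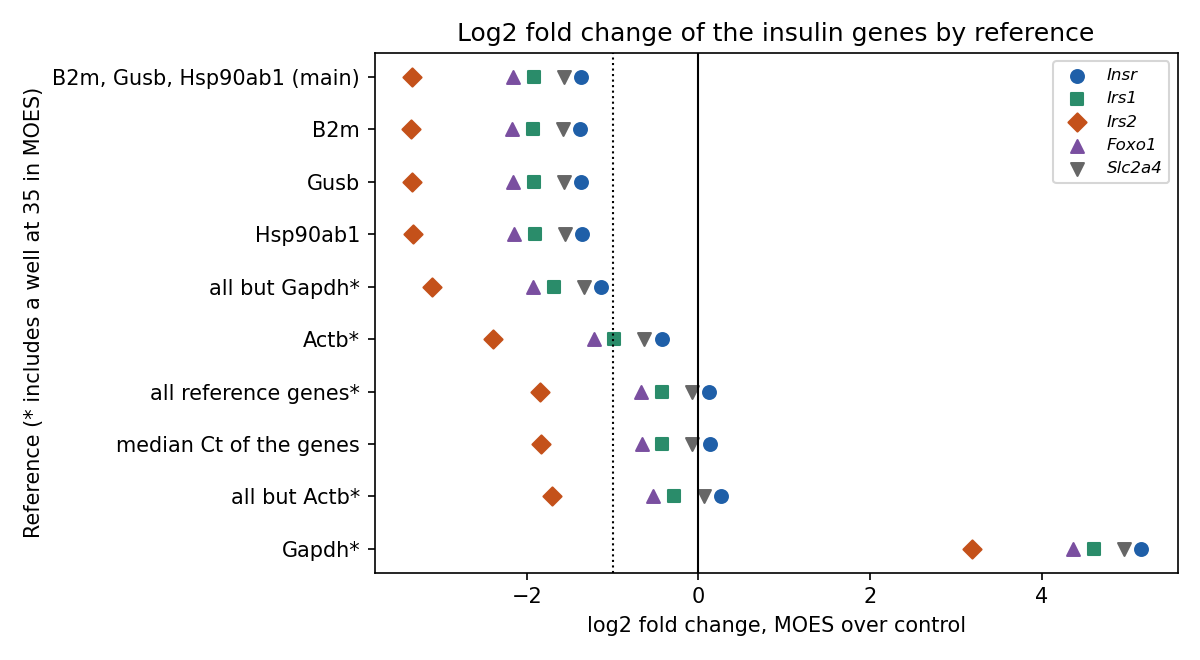
Log2 fold change of MOES over control (horizontal axis) for the insulin receptor, its substrates, Foxo1 and Slc2a4 under each reference (vertical axis); the solid line is no change, the dotted line a fold change of 0.5, and an asterisk marks references with a gene at 35 in the MOES sample. A reference shifts all genes alike, so the order of the 4 genes measured in both samples is fixed by construction. Irs2, the lowest of them, runs from -3.35 with B2m alone to 3.19 with Gapdh alone. The values of Slc2a4 are bounds whose direction is unknown under the marked references.

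Of 16 other genes of the array that act with FOXO1, follow insulin or alter its action, 12 had a fold change below 0.5, 2 were above 1.5 and 2 lay between, with a median log2 fold change of -1.74. On the panel, 67.9% of the genes were below 0.5 and 8.33% above 1.5. The FOXO1 partners and deacetylases were all below 0.5. Ppargc1a, the coactivator PGC-1 alpha that works with FOXO1 in fasting liver, went from a Ct of 24.47 to 30, a level 45.9-fold lower. Sirt2, a deacetylase of FOXO1, was 3.14-fold lower, and Sirt1 was at least 3.58-fold lower with its MOES well at 35. Of the cell cycle inhibitors known as FOXO targets, Cdkn1a, encoding p21, went from 24.81 to 26, a level 2.27-fold lower. Cdkn1b, encoding p27, went from 34.19 to 34, a fold change of 1.15. Its control well was so late that at most a 1.74-fold lower level could be seen. Cdkn1b could therefore not fall below 0.5, and the contrast with Cdkn1a is not resolved.

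The lipid genes under insulin control went both ways. Srebf1, the transcription factor that insulin uses to raise lipid synthesis, went from a Ct of 32.44 to 35 and was at least 5.86-fold lower. Fasn, fatty acid synthase, went from 31.27 to 35 and was at least 13.2-fold lower. Lpl, which frees fatty acids from lipoproteins, was 3.78-fold lower, and Lipe, the hormone-sensitive lipase that insulin restrains, was 2.08-fold lower. Acacb, the acetyl-CoA carboxylase that limits fatty acid oxidation, was the exception, with a Ct of 30.13 without MOES and 28 with it and a fold change of 4.41.

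Among regulators of the GLUT4 gene, Pparg, the nuclear receptor targeted by insulin-sensitising drugs, went from 19.82 to 25, a level 36-fold lower. Klf15, a Krueppel-like factor, was 4-fold lower, and Cebpa had a fold change of 0.578, between the limits. Of the hormones that alter insulin sensitivity, Adipoq was 24.6-fold lower and Retn 2.60-fold lower, whereas Lep, leptin, went from 33.89 to 32, a fold change of 3.73.

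**Figure D4:**
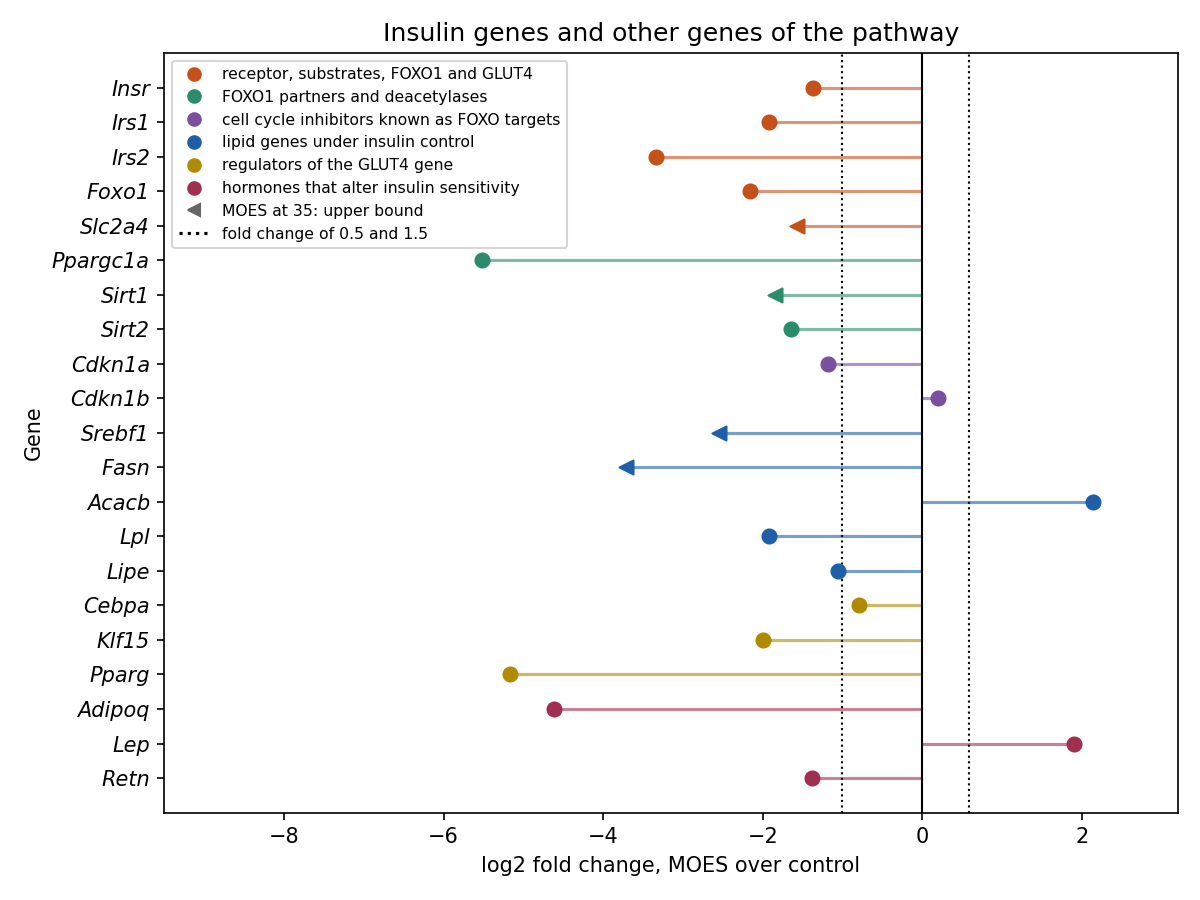
Log2 fold change of MOES over control (horizontal axis) for the insulin receptor, its substrates, Foxo1 and Slc2a4 (orange) and for 16 other genes of the pathway coloured by list (vertical axis); left-pointing triangles are upper bounds, and the dotted lines are fold changes of 0.5 and 1.5. The 5 genes in orange and 12 of the 16 others lie left of the lower limit, and Acacb and Lep lie right of the upper one.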

How the data were processed

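Expression was measured by SYBR Green quantitative PCR in 1 control and 1 MOES sample of HepG2 cells. The authors deposited an average Ct score per well, the delta Ct score (Ct minus the mean of the reference genes) and the ratio 2 to the power of minus delta Ct, made with the array maker's web software. The number of averaged wells is not given in the sources used here, and the standard deviation columns hold no numbers. The study's methods state at least triplicate biological repeats for its experiments in general, and do not tie this to the array averages. The fold change table holds the authors' own comparison and was not used. The column of the treated group was assigned through its header. All 31 subsets of the reference genes were compared with the delta Ct to find those used, and the subset chosen differed from it by at most 0.0057 cycles. Log2 fold changes were the delta Ct of the control minus that of the MOES sample. The genes and lists were chosen with earlier results of these data known. Genes named are the 5 of the pathway, the reference genes, 16 pathway genes, markers and the 2 nearest genes to each member (none for Slc2a4, a bound). All 5 symbols matched RefSeq, and 4 had a promoter entry (SLC2A4 had none). Alternatives covered the reference, late wells, source, rounding and limits. The calculation was tested on simulated data. Python 3.11.15, numpy 2.4.6, pandas 2.3.3 and matplotlib 3.10.9 were used.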

Additional observations from a re-analysis of the deposited data

Results flagged for a closer look

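The MGDC well, which checks for genomic DNA and enters no comparison above, crossed the threshold earlier with MOES, at a Ct of 29.56 against 29.9 without it, a log2 fold change of 0.35. This gap is below the well-to-well SD of 0.530 cycles, but the well was under the ceiling of 35 in both samples. With MOES it was earlier than Irs1 at 30, Irs2 at 31, Foxo1 at 32 and Slc2a4 at 35, and later than Insr at 27. Without MOES, Slc2a4 at 33.42 was the only member later than the well. The part of genomic DNA in the values of the insulin genes was not tested.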

How the results depend on the processing

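No paired analysis was possible because the groups had 1 sample each. Values are log2 fold changes in the order Insr, Irs1, Irs2, Foxo1, Slc2a4 and their median, followed by the number of the 5 genes below the lower limit and the numbers of the 16 other pathway genes below and above the limits. Actb alone gave -0.43, -0.98, -2.40, -1.22, -0.63 and -0.98, with 2 of the 5 and 6 of the 16 below. Gapdh alone gave 5.16, 4.61, 3.19, 4.37, 4.96 and 4.61, with 0, 0 and 16. All reference genes together gave 0.12, -0.43, -1.85, -0.67, -0.076 and -0.43, with 1, 5 and 4. All but Actb gave 0.26, -0.29, -1.71, -0.53, 0.0625 and -0.29, with 1, 4 and 4. The median Ct of the genes gave 0.13, -0.42, -1.84, -0.66, -0.07 and -0.42, with 1, 5 and 4. These references add a constant to every gene by construction, a minimum where Actb or Gapdh is included. The MOES gene wells lowered by 1 cycle gave -0.37, -0.92, -2.34, -1.16, -0.57 and -0.92, with 2 of the 5 and 6 of the 16 below. Ct above 32 set to 32, which by construction removes later differences, put Slc2a4 at 0.01 and left 7 of the 16 below and 1 above.
With the control gene wells rounded, the difference between Irs1 and Foxo1 was 0, against 0.24. Irs2 was then lower than Irs1 by 1, against 1.42, and than Foxo1 by 1, against 1.18. The 6 measured pairs moved by less than the well-to-well SD, and Slc2a4 has no known difference from any gene because of the ceiling. Of 173 values recomputed, 117 kept within that SD or within 1.5 times a count. These include all from B2m, Gusb, Hsp90ab1 or all but Gapdh as reference, from the deposited delta Ct and relative levels, and from the other limits. With the MOES wells lowered by 0.5 cycle, Insr was at -0.87 and 4 of the 5 genes were below 0.5. With the control wells rounded, Insr was at -0.99 and 4 of the 5 were again below. In both settings 9 of the 16 other pathway genes were below 0.5, against 12. The Ct ceiling limits Slc2a4, and the whole-number MOES values limit every gene to about a cycle.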
